A study of Mus musculus with 9 samples.

Results

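A group of 10 genes that mark type 2 and regulatory lymphoid cells were taken by their symbols, and 9 of them had values among the 11063 genes measured in non-epithelial mammary cells: Gata3, Il1rl1, Il2ra, Rora, Icos, Klrg1, Ctla4, Tnfrsf4 and Tnfrsf18. Foxp3 was not analysed here. The cells came from #4 mammary glands of female virgin FVB/N mice, an inbred strain, that were 6 weeks old at the start. Calorie restriction (CR) lasted 8 weeks in 5 mice, which were given 65% of the normal ration according to the submitters' notes (the methods give a somewhat higher share) and a micronutrient supplement. The ration was set each day from what the control mice had eaten. The CR mice were set against 4 mice fed ad libitum throughout. Each library held poly(A) RNA of 15000 sorted Lin-CD49fnegCD24neg cells of 1 mouse. Before the sort, magnetic depletion (Lin-) had taken away endothelial cells and a share of the haematopoietic cells and fibroblasts, so the libraries do not hold the full lymphoid compartment of the gland.

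Type 2 lymphoid cells include T helper 2 cells and group 2 innate lymphoid cells (ILC2), which depend on the transcription factor GATA3, respond to the alarmin IL-33 through its receptor ST2 (Il1rl1) and carry KLRG1 when activated. Regulatory T cells restrain other lymphocytes, take up IL-2 through CD25 (Il2ra), and carry the inhibitory receptor CTLA4 together with the costimulatory receptors ICOS, OX40 (Tnfrsf4) and GITR (Tnfrsf18). In adipose-rich tissues such as the mammary fat pad, both cell types are known residents, and fat-resident regulatory T cells share GATA3 and ST2 with ILC2. None of these genes is restricted to a single cell type. Activated conventional T cells also carry ICOS, CTLA4, OX40 and GITR, luminal mammary cells use GATA3, and mast cells carry ST2.

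Libraries held 785301 to 1485963 recovered molecule counts in CR mice (median 974109) and 382877 to 817030 in ad libitum-fed mice (median 480190), so that depth and diet moved together. Values are normalized counts, that is molecules per gene after division by the size factor of each library, and 1 count was worth 0.516 to 0.966 normalized counts in CR libraries and 0.898 to 1.95 in ad libitum libraries. Fold changes are on the scale of log2(normalized count + 1), which understates the change of low genes, and were tested with limma over all 11063 genes. Calls were made at 0.05 on p-values adjusted by Benjamini-Hochberg over all of them. Against the label of non-epithelial cells, the 3 epithelial genes analysed (Krt18, Krt19 and Esr1) made up 0.00153 to 0.00424% of the counts of CR libraries and 0.000858 to 0.00441% of ad libitum libraries, and Epcam, Krt5, Krt8, Krt14 and Elf5 were not analysed here. The 12 fibroblast genes made up 1.43 to 1.82% of CR libraries and 0.931 to 1.58% of ad libitum libraries. Stress and immediate early genes were higher in CR, with 4 of 8 called (1 of 8 with libraries scaled to the fibroblast list), and made up 1.54 to 3.05% of counts in CR mice and 1.10 to 1.45% in ad libitum-fed mice. Their part in the results below was not tested.

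Of the 9 genes, 5 were lower in CR and none was higher. Tnfrsf4, Tnfrsf18, Ctla4, Gata3 and Icos passed the limma test, whereas Il1rl1, Il2ra, Rora and Klrg1 did not. Over all 11063 genes, 6.86% were called lower and 5.24% were called higher. For the same 5 genes, each CR mouse lay below each ad libitum-fed mouse, a pattern shown by 7.48% of all genes, while 5.41% had each CR mouse above each ad libitum-fed mouse. The median log2 fold change of the 9 genes was -2.69, against 0.09 over all genes. Summed over the 9 genes, the counts made up 0.00494 to 0.0115% of CR libraries and 0.0551 to 0.0872% of ad libitum libraries. With libraries thinned to the smallest total, 382877 counts, the number of these genes called lower was again 5. In bulk libraries, fewer cells of a type and less RNA per cell cannot be told apart.

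**Figure D1:**
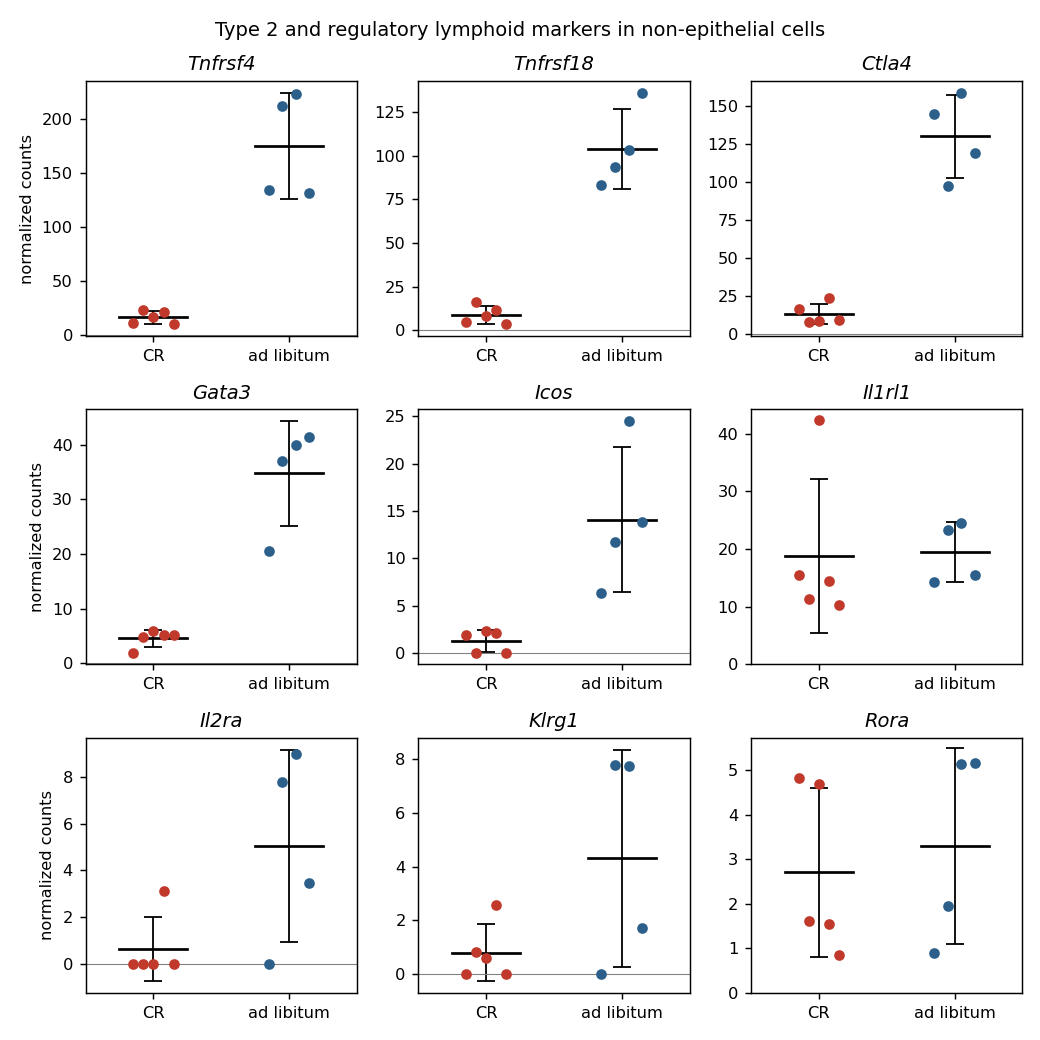
Normalized counts (vertical axis, from 0) of the 9 genes in each library, with CR mice in red on the left and ad libitum-fed mice in blue on the right. Horizontal lines are means and bars are SD (n = 5 CR and n = 4 ad libitum-fed mice). Tnfrsf4, Tnfrsf18, Ctla4, Gata3 and Icos do not overlap between the diets, while the other 4 genes do.

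The genes of the costimulatory receptors OX40 and GITR, which lie side by side, were both lower in CR. Tnfrsf4 encodes OX40, a receptor that prolongs the survival of activated T cells. It lies on the plus strand of chromosome 4 of GRCm38 from 156013843 to 156016612. Tnfrsf4 had 10.63, 22.63, 16.46, 21.16 and 9.44 normalized counts in CR mice 1 to 5, against 133.74, 212.39, 222.94 and 131.02 in ad libitum-fed mice 2 to 5. The highest CR mouse was far below the lowest ad libitum-fed mouse. The means were 16.1 ± 5.97 (SD, n = 5) in CR mice and 175 ± 49.4 (SD, n = 4) in ad libitum-fed mice, a level in CR that was 9.18% of the other, and a log2 fold change of -3.40 (SE 0.30, limma adjusted p = 2.08e-08). By p-value Tnfrsf4 ranked 21 among all genes.

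Tnfrsf18 encodes GITR, which is abundant on regulatory T cells and lowers the threshold for T cell activation. It starts 9551 bases after the end of Tnfrsf4, from 156026164 to 156028895 on the same strand. Its values were 4.83, 16.16, 8.23, 11.87 and 3.43 normalized counts in CR mice 1 to 5, against 83.47, 93.53, 103.09 and 136.19 in ad libitum-fed mice 2 to 5. Again the diets did not overlap. CR mice averaged 8.90 ± 5.21 (SD, n = 5) and ad libitum-fed mice 104 ± 22.9 (SD, n = 4), and the log2 fold change was -3.55 (SE 0.37, limma adjusted p = 3.13e-07). An antisense gene, Gm16008, overlaps the last 1000 bases of Tnfrsf18, and whether the counting used strand is not given in the sources used here, so that reads of the pair may not have been separated.

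Ctla4, the inhibitory receptor that competes with CD28 for CD80 and CD86, fell by a similar amount. It spans 60887000 to 60915832 on chromosome 1, and Icos follows it on the same strand after 62094 bases. CR mice 1 to 5 had 16.43, 8.08, 8.82, 23.75 and 9.44 normalized counts of Ctla4, against 144.51, 97.43, 158.5 and 118.95 in ad libitum-fed mice 2 to 5. The means were 13.3 ± 6.73 (SD, n = 5) in CR mice and 130 ± 27.1 (SD, n = 4) in ad libitum-fed mice, and the log2 fold change was -3.28 (SE 0.32, limma adjusted p = 1.00e-07). These values rest on 10 to 46 molecules per CR library and 50 to 161 per ad libitum library.

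The sequences upstream of these 3 genes are shown because the genes changed together and all are known to be induced on activated T cells. Each is the 250 bases before a start site in RefSeq (GRCm38.p6), from chr4:156013445-156013694 for Tnfrsf4, chr4:156026072-156026321 for Tnfrsf18 and chr1:60908775-60909024 for Ctla4, all on the plus strand and written 5′ to 3′. The RefSeq start sites differ from the gene spans of GENCODE given above, so that the Ctla4 window lies inside its GENCODE span and the Tnfrsf18 window reaches past its GENCODE start. Capitals mark GGAAA, the core letters bound by NFAT factors, or its reverse complement.
Tnfrsf4: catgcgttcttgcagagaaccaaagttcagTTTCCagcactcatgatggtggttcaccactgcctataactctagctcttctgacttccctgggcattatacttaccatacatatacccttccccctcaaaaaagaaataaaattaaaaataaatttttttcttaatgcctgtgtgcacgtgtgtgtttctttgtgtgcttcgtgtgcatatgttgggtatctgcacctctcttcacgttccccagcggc
Tnfrsf18: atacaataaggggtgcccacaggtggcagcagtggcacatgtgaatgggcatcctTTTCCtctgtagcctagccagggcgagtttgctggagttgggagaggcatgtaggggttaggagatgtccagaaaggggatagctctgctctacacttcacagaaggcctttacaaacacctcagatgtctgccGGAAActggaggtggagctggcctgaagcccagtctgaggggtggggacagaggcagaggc
Ctla4: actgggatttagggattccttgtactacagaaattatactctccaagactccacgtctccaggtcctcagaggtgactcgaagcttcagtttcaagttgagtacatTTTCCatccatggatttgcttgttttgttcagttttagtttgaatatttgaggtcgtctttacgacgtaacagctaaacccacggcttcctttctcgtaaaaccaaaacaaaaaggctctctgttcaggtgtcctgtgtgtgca
Of the 9 genes, 7 had such a window, and all 7 held GGAAA on either strand, as did 55.6% of the 32851 windows of this length. GATAA, the letters of GATA factors, occurred on either strand in 1 of the 7, Il1rl1, and in 22.6% of all windows, and TTCNNNGAA, the letters of STAT factors, in 1 of the 7, Tnfrsf18, and in 7.02% of all windows. No binding was measured here, and a match describes letters only.

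Icos, a costimulatory receptor of the CD28 family, was close to its detection limit in CR mice. The gene lies on chromosome 1 from 60977927 to 61000320. Icos had 1.93, 0, 2.35, 2.06 and 0 normalized counts in CR mice 1 to 5, against 6.28, 11.69, 24.48 and 13.79 in ad libitum-fed mice 2 to 5. All CR mice were below all ad libitum-fed mice, with 10 molecules in the 5 CR libraries together and 40 in the 4 ad libitum libraries. A library with no molecule allows up to 3, which is 2.42 normalized counts in CR mouse 2 and 2.57 in CR mouse 5 (counting error only). The means were 1.27 ± 1.17 (SD, n = 5) in CR mice and 14.1 ± 7.63 (SD, n = 4) in ad libitum-fed mice, and the log2 fold change was -2.79 (SE 0.63, limma adjusted p = 0.00401). Icos did not reach the 30 counts in a library that the study asked of its genes, so that 4 of the 9 genes were lower under the criteria of the study. These criteria were applied here to limma p-values and fold changes, whereas the study used DESeq2.

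Gata3 was the transcription factor of the group that fell. GATA3 directs T helper 2 and ILC2 differentiation and is needed in early T cells. The gene lies on the minus strand of chromosome 2 from 9857078 to 9890034. Gata3 had 1.93, 4.85, 5.88, 5.16 and 5.15 normalized counts in CR mice 1 to 5, against 20.64, 37.02, 39.95 and 41.37 in ad libitum-fed mice 2 to 5. The lowest ad libitum-fed mouse was well above the highest CR mouse. CR mice averaged 4.59 ± 1.54 (SD, n = 5) and ad libitum-fed mice 34.7 ± 9.58 (SD, n = 4), and the log2 fold change was -2.69 (SE 0.44, limma adjusted p = 0.00014). Luminal cells also use Gata3, and the 3 epithelial genes measured, Krt18, Krt19 and Esr1, summed to 11.6 to 32.6 normalized counts in CR mice and 6.29 to 32.8 in ad libitum-fed mice, with none of them called. The part of luminal cells in the Gata3 values was not tested.

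Rora, the other transcription factor, which is needed for ILC2 development and also serves the circadian clock in many cells, was measured by very few molecules. It lies on chromosome 9 from 68653786 to 69388246, the longest span among these genes. CR mice 1 to 5 had 4.83, 1.62, 4.7, 1.55 and 0.86 normalized counts, against 0.9, 1.95, 5.15 and 5.17 in ad libitum-fed mice 2 to 5. The diets overlapped throughout, with 1 to 8 molecules per CR library and 1 to 4 per ad libitum library. The log2 fold change was -0.20, with a 95% confidence interval from -1.53 to 1.14 (limma adjusted p = 0.892), and at this depth a difference within these bounds could not be resolved.

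Il1rl1, the IL-33 receptor, showed no detectable difference between the diets. It lies on chromosome 1 from 40429570 to 40465415, and its row does not separate the membrane receptor from the soluble decoy form. The values were 15.46, 11.31, 42.34, 14.45 and 10.29 normalized counts in CR mice 1 to 5, against 14.36, 23.38, 24.48 and 15.52 in ad libitum-fed mice 2 to 5. CR mouse 3 stood alone at the top, and the remaining CR mice lay in or just below the lower part of the ad libitum range. The means were 18.8 ± 13.3 (SD, n = 5) in CR mice and 19.4 ± 5.23 (SD, n = 4) in ad libitum-fed mice, and the log2 fold change was -0.21, with a 95% confidence interval from -1.06 to 0.64 (limma adjusted p = 0.808). Without CR mouse 3 the log2 fold change was -0.54 (limma adjusted p = 0.459).

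Mast cells and some endothelial cells also carry ST2. Mast cell genes, of which 4 of 6 measured were lower in CR (the proteases Mcpt4, Cma1 and Tpsb2, and Hdc, the enzyme that makes histamine), summed to 133, 29.1, 36.5, 115 and 47.2 normalized counts in CR mice 1 to 5, against 630, 512, 427 and 345 in ad libitum-fed mice 2 to 5. Kit and Cpa3 were not called. Endothelial genes, 8 in all, summed to 53.2, 60.6, 120, 58.3 and 54.9 in CR mice 1 to 5, highest in the mouse with the highest Il1rl1, against 84.4, 138, 106 and 136 in ad libitum-fed mice 2 to 5. Of these 8, Pecam1 was lower in CR, and Tek was higher in the limma fit but not with DESeq2, edgeR, thinned libraries or the replicate block, nor without any 1 of CR mice 1 to 4 or ad libitum-fed mice 2, 4 and 5. The part of either cell type in the Il1rl1 values was not tested.

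Il2ra and Klrg1 had few molecules and did not pass the test. Il2ra encodes CD25, the chain that gives the IL-2 receptor its high affinity, and lies on chromosome 2 from 11642807 to 11693193. CR mice 1 to 5 had 0, 0, 0, 3.1 and 0 normalized counts of Il2ra, against 0, 7.79, 9.02 and 3.45 in ad libitum-fed mice 2 to 5. All 6 molecules of the CR group were in CR mouse 4, and ad libitum-fed mouse 2 had none. A library without a molecule allows up to 3. This is 1.76 to 2.90 normalized counts in CR mice 1, 2, 3 and 5, and 2.69 in ad libitum-fed mouse 2. The log2 fold change was -1.75 with a 95% confidence interval from -3.30 to -0.20 (limma unadjusted p = 0.0289, adjusted p = 0.14). Without ad libitum-fed mouse 2 it was -2.46 and passed the test (limma adjusted p = 0.0306), so that 6 genes were lower in place of 5.

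Klrg1, an inhibitory receptor for cadherins on mature ILC2, NK cells and effector T cells, lies on the minus strand of chromosome 6 from 122270596 to 122282882. Klrg1 had 0, 0.81, 0.59, 2.58 and 0 normalized counts in CR mice 1 to 5, against 0, 7.79, 7.73 and 1.72 in ad libitum-fed mice 2 to 5. Ad libitum-fed mice 3 and 4 stood above all other libraries. The log2 fold change was -1.25 with a 95% confidence interval from -2.77 to 0.26 (limma adjusted p = 0.305), from 7 molecules in all CR libraries and 11 in all ad libitum libraries.

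**Figure D2:**
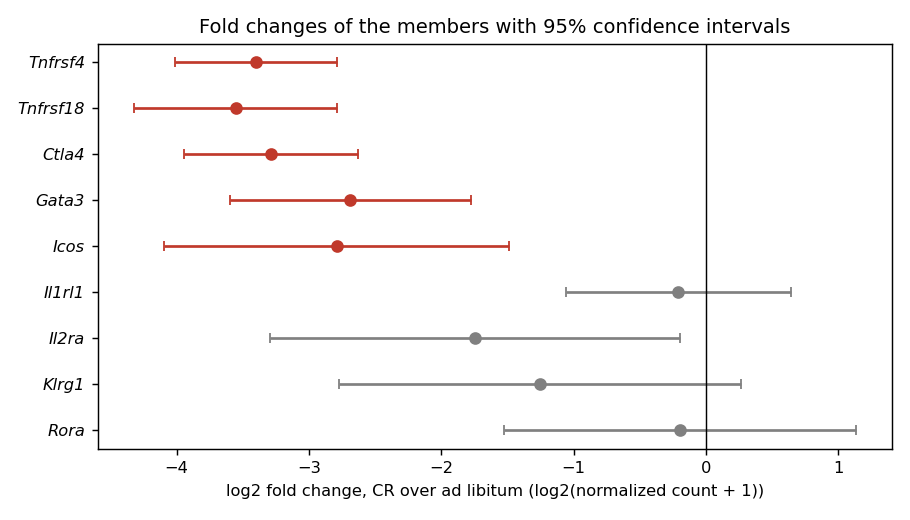
Log2 fold changes (horizontal axis, CR over ad libitum, on log2(normalized count + 1)) of the 9 genes with 95% confidence intervals from limma (n = 5 CR and n = 4 ad libitum-fed mice). The 5 genes in red, from -3.55 for Tnfrsf18 to -2.69 for Gata3, had an adjusted p of at most 0.05, and the 4 in grey did not.

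The spread between mice is set beside the spread that counting alone would give, as a description. The coefficient of variation of Tnfrsf4 was 37.2% in CR mice and 28.2% in ad libitum-fed mice, against 21.1% and 9.24% from counting. The coefficient of variation of Ctla4 was 50.6% in CR mice and 20.9% in ad libitum-fed mice, against 23.3% and 10.4% from counting. That of Tnfrsf18 was 58.5% and 22.0%, against 28.2% and 12.0%. For Gata3 it was 33.5% in CR mice and 27.6% in ad libitum-fed mice, against 39.3% and 21.0% from counting. The values of Tnfrsf4, Tnfrsf18 and Ctla4 were above those from counting in both diets, and that of Gata3 was below it in CR mice. Il1rl1 varied by 71.1% in CR mice, against 19.2% from counting, and by 26.9% in ad libitum-fed mice, against 27.8%.

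To ask whether the genes changed more or less than T cell genes as a whole, their normalized counts were expressed per 100 normalized counts of a list of 22 T cell genes in the same library. Of this list 18 genes were lower and none was higher in CR, led by Lat, Cd3d, Cd3g and Skap1, which serve the T cell receptor, with a median log2 fold change of -3.53. It made up 0.0174 to 0.0353% of CR libraries and 0.262 to 0.516% of ad libitum libraries, from 159 to 524 molecules per CR library and 1130 to 3039 per ad libitum library. Tnfrsf4 had 6.51, 8.16, 9.0, 7.82 and 6.92 per 100 T cell counts in CR mice 1 to 5, against 4.90, 7.85, 6.32 and 6.73 in ad libitum-fed mice 2 to 5. The diets overlapped, with means of 7.68 ± 0.99 (SD, n = 5) in CR mice and 6.45 ± 1.22 (SD, n = 4) in ad libitum-fed mice (exact permutation test, two-sided, p = 0.127). No difference in this ratio was detectable for Tnfrsf4.

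The other 4 genes that fell gave ratios that overlapped between the diets as well. Tnfrsf18 averaged 4.04 ± 1.33 per 100 T cell counts in CR mice and 4.11 ± 1.94 in ad libitum-fed mice, and Ctla4 6.70 ± 2.89 and 4.88 ± 1.07 (SD, n = 5 and n = 4, exact permutation tests, two-sided, p = 0.937 and p = 0.27). Gata3 averaged 2.37 ± 1.08 in CR mice and 1.35 ± 0.58 in ad libitum-fed mice, and Icos 0.646 ± 0.621 and 0.516 ± 0.229 (SD, n = 5 and n = 4, exact permutation tests, two-sided, p = 0.143 and p = 0.683). For Il2ra and Klrg1 the p-values were 0.968 and 0.508 (exact permutation tests, two-sided). These p-values are unadjusted. A p above the threshold does not show that the ratios were equal, and the CR ratios rest on few molecules.

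For Il1rl1 and Rora, which had no detectable fall in normalized counts, the ratios are given as a description, because the fall of the T cell list alone raises the ratio of any gene that did not fall with it. Il1rl1 had 9.47, 4.08, 23.2, 5.34 and 7.54 per 100 T cell counts in CR mice 1 to 5, against 0.526, 0.864, 0.694 and 0.797 in ad libitum-fed mice 2 to 5. The diets did not overlap, with CR mice the higher. Without CR mouse 3 the difference was 5.89 in place of 9.20 per 100 T cell counts. Rora had 2.96, 0.584, 2.57, 0.573 and 0.631 in CR mice 1 to 5, against 0.033, 0.0721, 0.146 and 0.265 in ad libitum-fed mice 2 to 5, also without overlap. These ratios say nothing particular about Il1rl1 or Rora beyond the levels given above.

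**Figure D3:**
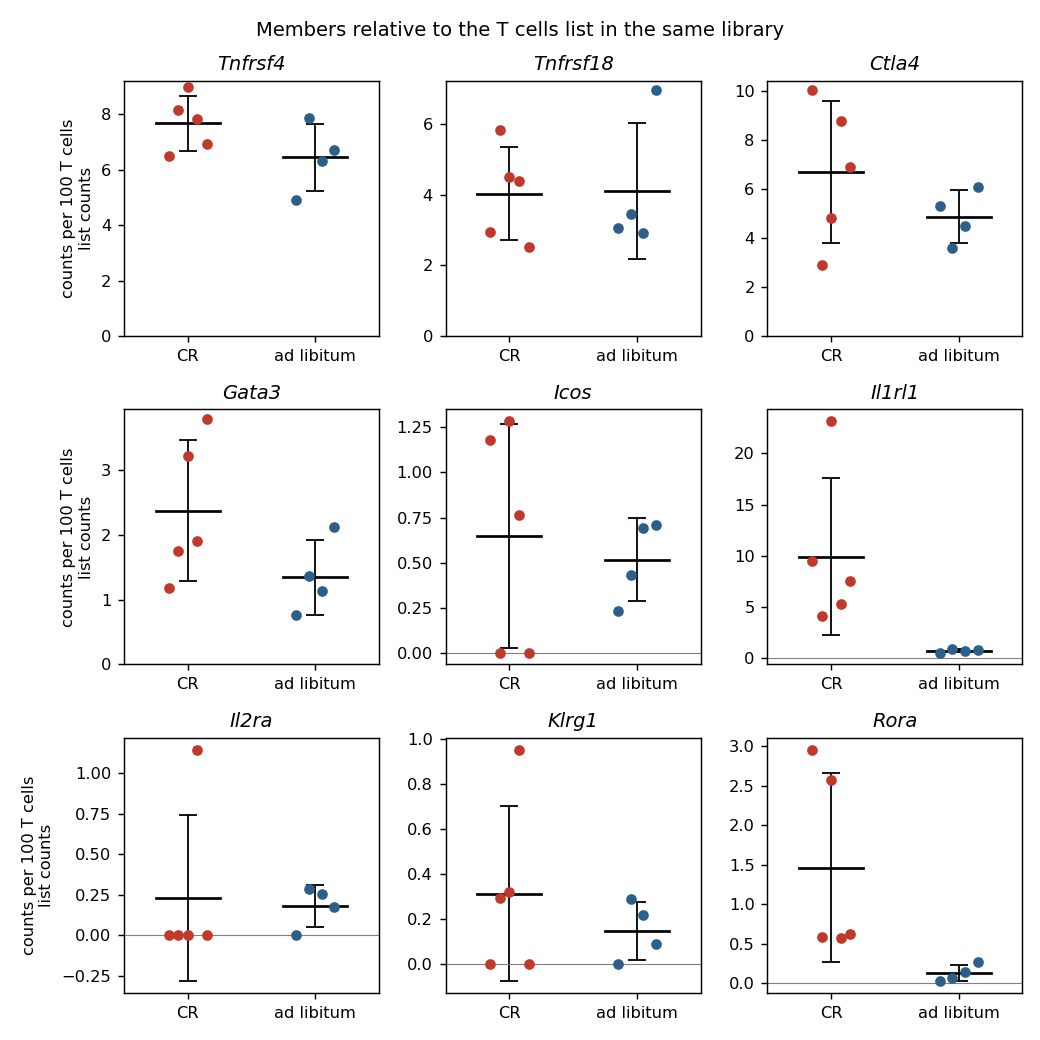
Normalized counts of each gene per 100 normalized counts of the T cell list in the same library (vertical axis), with CR mice in red on the left and ad libitum-fed mice in blue on the right. Lines are means and bars are SD (n = 5 CR and n = 4 ad libitum-fed mice), and Il1rl1 and Rora are the 2 genes whose ratios do not overlap between the diets.

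Of the ligands of these receptors, 6 were measured and none was called in either direction, and their median log2 fold change was 0.05. Il33, the ligand of ST2 and the most abundant of them, had 181 ± 66.8 normalized counts (SD, n = 5) in CR mice and 125 ± 54.0 (SD, n = 4) in ad libitum-fed mice, and the log2 fold change was 0.56 (limma adjusted p = 0.225). The genes of Icosl, Cd80 and Il2, ligands of ICOS, CTLA4 and CD25, were among those tested, while Tnfsf4, Tnfsf18 and Cd86, the ligands of OX40, GITR and CTLA4, were not analysed here. Il2, Cd80, Cdh1 and Cdh2 averaged at most 3.29 normalized counts in either diet. For these ligands, the lack of a call does not show that they were unchanged.

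Among receptor partners and signaling genes, 4 of 11 measured were lower and 2 were higher in CR. Il2rg, the common chain of the receptors for IL-2, IL-7 and related cytokines, had 46.9 ± 17.7 normalized counts (SD, n = 5) in CR mice and 497 ± 175 (SD, n = 4) in ad libitum-fed mice, and the log2 fold change was -3.39 (limma adjusted p = 4.21e-09). Il2rb, the beta chain of the IL-2 receptor, had 10.7 ± 5.33 and 89.6 ± 34.7, and the log2 fold change was -3.01 (limma adjusted p = 4.29e-06). Pik3cd, a kinase of lymphocytes that acts after CD28 family receptors, and Stat5b, which acts after the IL-2 receptor, had log2 fold changes of -3.08 and -1.15. Il1rap and Traf6, which also serve ST2, were not called and had log2 fold changes of 0.52 and -0.70 (limma adjusted p = 0.727 and 0.474). The 2 higher genes, which like these are named after their values were seen, act after ST2 among other receptors. They were the adaptor Myd88, with 161 ± 32.2 normalized counts in CR mice and 94.7 ± 19.3 in ad libitum-fed mice (limma adjusted p = 0.0183), and the kinase Irak4, with 4.83 ± 2.87 and 0.323 ± 0.645 (limma adjusted p = 0.0285). A library with no molecule allows up to 2.69 to 5.85 normalized counts in the shallower ad libitum libraries, which overlaps the CR range of Irak4, 2.57 to 9.7. Neither gene passed with the replicate block, with libraries scaled to the fibroblast list, or without CR mouse 2 or ad libitum-fed mouse 2, and 1 of the pair passed with DESeq2, edgeR, either filter, pseudocount 5, thinned libraries or the criteria of the study, and without CR mouse 1, CR mouse 4 or ad libitum-fed mouse 3.

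Of 13 measured genes of type 2 effector function and ILC2, 6 were lower in CR and none was higher, with a median log2 fold change of -1.19. Il7r, the receptor for the lymphocyte survival factor IL-7, had 3.41 ± 3.07 normalized counts (SD, n = 5) in CR mice and 45.9 ± 16.9 (SD, n = 4) in ad libitum-fed mice, and the log2 fold change was -3.63 (limma adjusted p = 3.28e-05). Areg, an EGF receptor ligand made by ILC2 and regulatory T cells among other cells, and Calca, which encodes the neuropeptide CGRP, had log2 fold changes of -3.35 and -2.83. Id2, a transcriptional regulator needed for innate lymphoid cells and used by many cells, was the most abundant and had a log2 fold change of -0.89 (limma adjusted p = 0.00519). Id2 overlapped between the diets, with up to 338.69 normalized counts in CR mice and from 334.79 in ad libitum-fed mice. Stat6, the transducer of IL-4, and Gfi1, a repressor, were the remaining lower genes, and are named after their values were seen.

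Of 19 measured genes of regulatory T cells, 7 were lower and 1 was higher in CR, with a median log2 fold change of -1.46. Izumo1r, the folate receptor 4 of regulatory T cells, had 6.31 ± 1.69 normalized counts (SD, n = 5) in CR mice and 81.4 ± 30.7 (SD, n = 4) in ad libitum-fed mice, and the log2 fold change was -3.45 (limma adjusted p = 3.06e-07). The costimulatory receptor Tnfrsf9, the inhibitory receptor Tigit and the transcription factor Batf had log2 fold changes of -3.14, -3.12 and -2.11. Lrrc32, which tethers latent TGF-beta to the surface of activated regulatory T cells and is also made by stromal and endothelial cells, was the most abundant of the list and the one that was higher, with 95.5 ± 13.4 in CR mice and 55.9 ± 17.6 in ad libitum-fed mice (log2 fold change 0.80, limma adjusted p = 0.0286). Lrrc32 was not called with libraries scaled to their totals or to the fibroblast list, nor without any 1 of CR mice 1, 2, 3 and 5 or ad libitum-fed mice 3 and 4. Without ad libitum-fed mouse 4, 4 genes of the list were lower, and with the replicate number as a block 4 were lower and 0 higher.

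**Figure D4:**
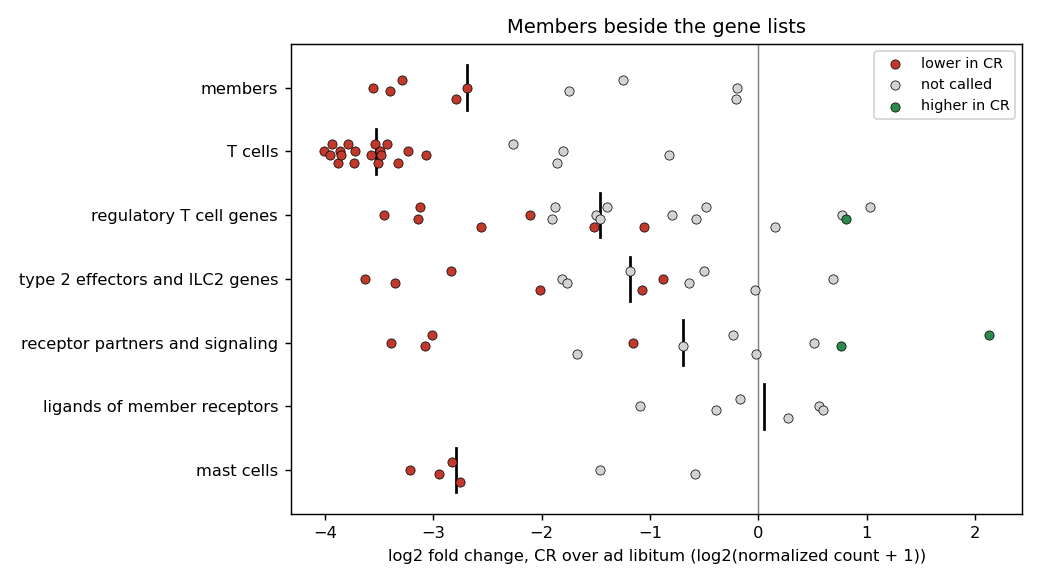
Log2 fold changes (horizontal axis, CR over ad libitum, on log2(normalized count + 1)) of single genes by list, with vertical lines at the list medians. Red points were lower in CR, green points higher and grey points not called (limma, adjusted p of at most 0.05). The median was -2.69 for the members, -3.53 for the T cell list and -2.79 for the mast cell list. It was -1.46 for the regulatory T cell list, -1.19 for the type 2 list, -0.70 for receptor partners and 0.05 for ligands. The scale understates the change of low genes, and the lists differ in abundance, so that the order of the medians is a description only.

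Across the 9 libraries, the genes outside the group whose pattern was most like its mean profile were Hopx, Il2rg, Ikzf3, Fmnl3 and Lat. The profile was the mean of the standardized values of the 6 members that averaged at least 5 normalized counts, and the correlation with it (Pearson r on log2 values, n = 9 libraries, given as a description) ran from 0.989 for Hopx to 0.974 for Lat. Gata3 and Icos averaged 4.59 and 1.27 in CR mice, and so reached 5 only through the ad libitum libraries. All of the 6 but Il1rl1 were lower in CR, so the profile follows the difference between the diets. A gene with a like difference correlates with it by construction. Lat is an adaptor of the T cell receptor, Ikzf3 a transcription factor of lymphocytes and Fmnl3 a formin that acts on actin. Hopx, a regulator also found in lymphocytes, had 12.3 ± 5.09 normalized counts (SD, n = 5) in CR mice and 54.2 ± 7.56 (SD, n = 4) in ad libitum-fed mice, and the log2 fold change was -2.12.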

How the data were processed

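Bulk MARS-Seq, a 3'-end method with a molecular identifier on each transcript copy, gave 1 library per mouse from 30 ng of RNA. The authors used cutadapt for trimming and STAR for alignment to mm10, removed duplicates by molecular identifier, counted with HTSeq in RefSeq 3' ends of 1000 bases, corrected for identifier saturation and divided by DESeq2 size factors. Tool versions: not given in the sources used here. Each deposited signal value is this normalized count to 2 decimals, and counts molecules, not reads.

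Each library's values were whole multiples of 1 step (99.97 to 100% of values above 0 within 0.0051), which recovered whole counts. Between libraries of a diet, chi-square per degree of freedom was at least 3.70, so none was a duplicate. Libraries are of separate mice, barcoded and then pooled. The main test was limma 3.58.1 (trend) in R 4.3.3 on log2(normalized count + 1) over all 11063 genes, without a filter on low values, so that every member with values was tested. The design took normalized values as given, and count tests were alternatives: DESeq2 1.42.0 on recovered counts called 875 genes lower and 537 higher, and edgeR 4.0.16 called 772 and 516. Single values were compared by exact permutation tests over all 126 assignments. The limma fit was tested on simulated data. Gene positions are from GENCODE M21 and upstream sequences from RefSeq, both GRCm38.

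The members and the 14 other gene lists were chosen with earlier results of these data known. The text names all members, of each list the 4 called genes with the smallest p and the most abundant gene (those of the lists that bear on the members are described), and the 5 genes closest to the mean profile. Genes outside this rule are marked, except those set beside a member as markers of another cell type. No value column was left out. Alternatives covered the test, filter, pseudocount (0.5 and 5), scaling, depth, criteria of the study, each mouse left out and the replicate number as a block.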

Additional observations from a re-analysis of the deposited data

Results flagged for a closer look

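Dixon's test was applied to the 36 sets of values (9 genes, 2 diets, as normalized counts and per 100 T cell counts) and marked 6 of them. Its threshold marks about 1 in 20 independent sets of normally distributed values. These sets are not independent, because each gene enters in both forms, and a set with only 1 value above 0 is marked by construction. The 6 are therefore not compared with that rate. Il1rl1 in CR mouse 3 had 42.34 normalized counts, against 15.46 in the nearest CR mouse, and 23.2 per 100 T cell counts, against 9.47. Il2ra in CR mouse 4 had 3.1 normalized counts and 1.15 per 100 T cell counts, while the other CR mice had 0. Gata3 in CR mouse 1 had 1.93 normalized counts, against 4.85 in the nearest CR mouse. Tnfrsf18 in ad libitum-fed mouse 5 had 6.99 per 100 T cell counts, against 3.46 in the nearest ad libitum-fed mouse.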

How the results depend on the processing

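The calls of Tnfrsf4, Tnfrsf18, Ctla4 and Gata3 were kept under all 20 alternatives that give a fold change and that of Icos under the 19 in which it was tested. Icos did not pass the filter of 10 normalized counts in 4 libraries, and Il2ra, Klrg1 and Rora passed neither that filter nor a mean of 5. The 4 genes that met the criteria of the study exclude Icos. The log2 fold changes ran from -3.85 to -3.10 for Tnfrsf4, from -3.99 to -3.03 for Tnfrsf18, from -3.73 to -2.93 for Ctla4, from -3.14 to -2.03 for Gata3 and from -3.42 to -1.54 for Icos, with pseudocount 5 giving the smallest of Gata3 and Icos, by its construction. Leaving out 1 mouse gave 5 or 6 members lower and 0 higher, 532 to 764 of all genes lower and 328 to 606 higher. Among all genes, 56.7% of the calls were lower, 92.8% with libraries scaled to the fibroblast list (1245 lower and 97 higher, median log2 fold change moved by -0.43) and 38.5% with upper quartiles (1026 higher, median moved by 0.17). The cause was not tested.

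Values that changed sign were all of genes or ratios that were not called. Il1rl1 had a log2 fold change of 0.018 with edgeR. Rora had 0.40 after thinning, and from -0.53 to 0.036 with a mouse left out. The difference of the ratio of Tnfrsf18 was 3.27 per 100 counts of Cd3d, Cd3e and Cd3g, and ran from -0.52 to 0.89 with a mouse left out. That of Icos was -0.28 after thinning and ran from -0.030 to 0.29 with a mouse left out, and that of Il2ra from -0.18 to 0.11. The difference of the ratio of Rora, which the fall of the T cell list raises, was 2.51 after thinning, with overlapping diets.

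The labels do not say whether the replicate numbers pair the mice, and the correlations below cannot settle it. Deviations of same-numbered mice correlated at -0.06 to 0.04 over 8459 genes, and 1 of 4 CR mice correlated best with its own number. With the replicate block, 5 members were lower and 0 higher, and 539 of all genes were lower and 303 higher. Depth limits what can be said of Il2ra, Klrg1, Rora and, in CR, Icos.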

Other observations

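Other cell type lists gave the following counts. Of 7 measured NK and cytotoxic genes, 6 were lower in CR, among them Ctsw, Gzma and Nkg7, and of 3 B cell genes 2 were lower, Blk and Cd79b (1 without CR mouse 1, 2 or 5 or ad libitum-fed mouse 2 or 4, and 3 without ad libitum-fed mouse 3). Of 8 macrophage and monocyte genes, 3 were lower (Tyrobp, Fcer1g and C1qa), while Cd14, the most abundant, had 141 ± 117 normalized counts (SD, n = 5) in CR mice and 110 ± 29.6 (SD, n = 4) in ad libitum-fed mice (limma adjusted p = 0.948). C1qa overlapped between the diets. The number lower was 2 without any 1 of CR mice 1 to 5 or ad libitum-fed mice 2 and 3. It was 1 under the criteria of the study or the filter of 10 normalized counts in 4 libraries. With DESeq2, edgeR or scaling to the fibroblast list it was 4. Fcgr1, Mrc1, Cd163 and Msr1 were not analysed here. Of 12 fibroblast genes, 5 were higher and 1, Thy1, which T cells also carry, was lower. With the replicate block 1 of the 12 was higher, without CR mouse 4 or ad libitum-fed mouse 4 it was 2, and without CR mouse 1, 2, 3 or 5 or ad libitum-fed mouse 2 it was 3. Scaling to that list left 0 higher, by its construction. Of 4 adipocyte genes, 1 was higher, Plin4, which was at 0 in all ad libitum-fed mice. A library with no molecule allows up to 2.69 to 5.85 normalized counts there, which overlaps the CR range of Plin4, 2.35 to 9.66. With either filter or the criteria of the study, 0 of the 4 were higher.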
